A study of Mus musculus with 12 samples.

Results

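The gene table was searched for matrix metalloproteinases (symbols Mmp and a number), the ADAMTS proteases, the ADAMTS-like proteins (Adamtsl) and the tissue inhibitors of metalloproteinases (Timp1 to Timp4). The symbols matched 51 of 53707 gene identifiers: 23 Mmp, 19 Adamts, 5 Adamtsl and 4 Timp genes. Enough counts for a test were found for 44 of the 51, among 21061 genes tested in all. The other 7 were Mmp1b and Mmp7 with 0 counts over the 12 libraries, Mmp1a with 2, Mmp20 with 10, Adamts13 with 15, Mmp21 with 18 and Mmp23 with 61. A count of 0 allows up to 0.011 CPM (counts per 1e6 counts) over the pooled libraries, from counting error alone.

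RNA was measured in retinal explants, which are whole retinas kept alive in culture medium, of wild-type C57Bl/6J mice at P28 (28 days after birth). Retinas of both groups were freed of sclera and retinal pigment epithelium and cultured for 48 hours in Neurobasal-A medium with B27 and N2 supplements, and the groups differed in the glucose added, 5 mM or 25 mM. Each group had 3 biological replicates with 2 technical replicates each, 12 libraries in all, with 1 technical replicate of each in batch 1 (the first library) and the other in batch 2. Because explants are cut off from the circulation and contain all cell types of the retina, a bulk measurement cannot tell fewer cells of a type from less RNA per cell. What separated the biological replicates (animal, retina or culture) was not stated in the sources used here, so the p-values measure the spread between these samples.

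Matrix metalloproteinases are zinc proteases that cut collagens, laminins, proteoglycans, growth factors and other proteases. Most are secreted as inactive precursors, whereas the membrane-type enzymes act at the cell surface. ADAMTS proteases are secreted zinc enzymes that carry thrombospondin repeats. Several cut the proteoglycans aggrecan, versican and brevican, and others remove the amino-terminal propeptide of procollagens. ADAMTS-like proteins share the repeats but lack the catalytic domain. TIMPs block the active site of these enzymes, and Timp3, which binds to the extracellular matrix, is the gene mutated in Sorsby fundus dystrophy. In the retina these genes are studied for vessel growth, barrier breakdown, perineuronal matrix and gliosis.

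The libraries held 17998905 to 36692484 estimated counts at 5 mM and 14815285 to 23129541 at 25 mM glucose. In 2 libraries the log2 CPM over tested genes correlated better with the other group than with the other replicates of their own. The second library of 5 mM replicate 1 had a median Pearson r of 0.958 with its own group and 0.974 with the 25 mM libraries, and the second library of 25 mM replicate 3 had 0.960 and 0.974. The first library of 25 mM replicate 2 had the lowest r of any library with the opposite group (0.9025) and, with its technical partner, the lowest r of any technical pair (0.952). The members followed the same libraries: their summed level was 525 CPM in that library and 1495 CPM in its technical partner. At 5 mM the summed level was lowest, 1105 CPM, in the second library of replicate 1. Technical replicates were summed for the main comparison, and results are also given for each batch and without these libraries.

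By the sign of the fold change the members were mostly lower at 25 mM than at 5 mM glucose, with 8 of the 44 tested above 0. The log2 fold change was below 0 in 36 of the 44 tested members (81.8%), against 50.7% of all genes tested, and its median was -0.65 over the members and -0.01 over all genes. At a false discovery rate (FDR, the Benjamini-Hochberg adjusted p of edgeR's quasi-likelihood test over all genes) under 0.05, Adamts3 rose and Adamts12 and Mmp19 fell. By the same rule 1.47% of all genes tested rose and 0.513% fell, and the members' shares of 2.27% and 4.55% rest on 1 and 2 genes. At an FDR under 0.01 with a fold change over 2, edgeR called 0 of 44 members and 0% of all genes. By edgeR's unadjusted p under 0.05, 14 members were lower (31.8%, against 15.5% of all genes) and 2 were higher (4.55%, against 13.2%). In 16 members every 25 mM replicate lay below every 5 mM replicate (36.4%, against 15.8% of all genes), and in 3 members every 25 mM replicate lay above (6.82%, against 16% of all genes). DESeq2 on the same counts called 1 member higher and 8 lower, where it called 7.03% of all genes higher and 9.54% lower.

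The edgeR calls depended on single samples. Without 5 mM replicate 2 or 3, or 25 mM replicate 1 or 2, edgeR called 0 members and 0% of all genes in either direction. At an unadjusted p under 0.05 these fits had 1 or 2 members higher and 8 or 9 lower of 44 or 45, against 8.19% to 9.03% and 9.06% to 9.90% of all genes. Without 5 mM replicate 1 there were 2 members called higher and 12 lower of 45, against 11.7% and 14.9% of all genes. Without 25 mM replicate 3 the counts were 1 and 2 of 45, against 1.32% and 0.946%. Without the second library of 5 mM replicate 1 they were 1 and 7 of 44, against 4.23% and 4.04%, and without the second library of 25 mM replicate 3 they were 1 and 11 of 44, against 5.82% and 8.54%. Without the first library of 25 mM replicate 2 edgeR called 0 members and 0% of all genes, with 2 members higher and 10 lower of 44 at an unadjusted p under 0.05, against 9.39% and 11.7%. The median log2 fold change of the members stayed between -0.85 and -0.48 whichever biological replicate was left out.

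**Figure D1:**
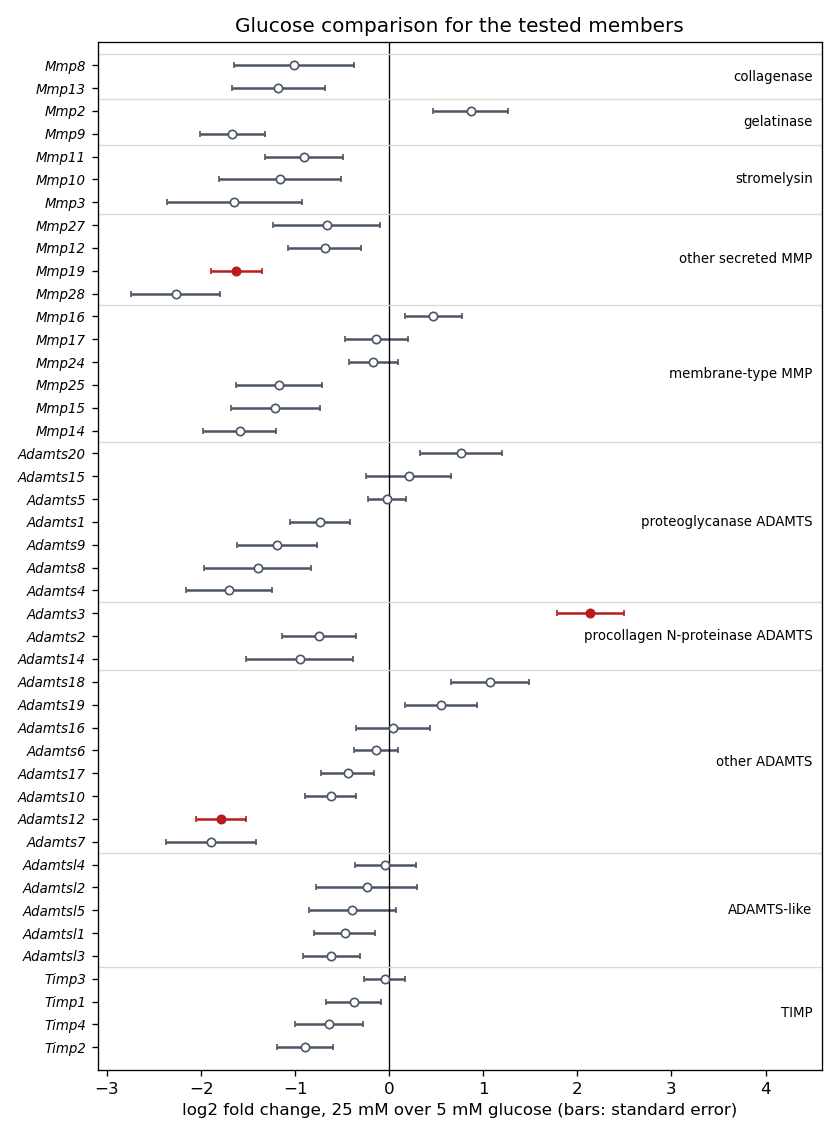
Log2 fold change of 25 mM over 5 mM glucose (horizontal axis) for the 44 tested members, grouped by role, with bars for the standard error of the edgeR fit and filled red points for an FDR under 0.05. Most points lie left of 0, with Adamts3 at 2.14 on the right and Mmp28 at -2.27 on the far left.

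Among the collagenases, which cut fibrillar collagen, Mmp8 and Mmp13 could be tested. Mmp13 was at 7.98, 6.11 and 6.70 CPM in the 5 mM replicates 1 to 3 and at 1.09, 2.96 and 5.13 CPM in the 25 mM replicates 1 to 3. Its log2 fold change was -1.18 (SE 0.49, FDR 0.161). Mmp8, best known as the neutrophil collagenase, was at 3.16, 3.71 and 4.34 CPM at 5 mM and at 0.301, 2.76 and 2.49 CPM at 25 mM, a log2 fold change of -1.02 (SE 0.64, FDR 0.316). In both genes the groups did not overlap, and replicate 1 at 25 mM was the lowest sample.

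The gelatinases cut denatured collagen and basement membrane collagen, and their 2 genes had fold changes of opposite sign. Mmp9 was at 8.15, 14.4 and 14.8 CPM at 5 mM and at 2.64, 4.41 and 4.70 CPM at 25 mM (log2 fold change -1.67, SE 0.34, FDR 0.0516). Mmp2 was at 2.44, 2.15 and 1.15 CPM at 5 mM and at 5.10, 2.76 and 2.60 CPM at 25 mM (log2 fold change 0.87, SE 0.40, FDR 0.190). Neither gene had overlapping groups, Mmp9 being lower and Mmp2 higher in every 25 mM replicate, and neither passed the threshold. The FDR of Mmp9 ranged from 0.00012 to 0.43 over the alternative analyses. Mmp2 had a log2 fold change of 2.28 in batch 1 and of -0.06 in batch 2. Of the transcript counts of Mmp9, 49.8% at 5 mM and 35.3% at 25 mM belonged to its coding transcript Mmp9-201, and 49.5% and 63.5% to the noncoding Mmp9-204. These shares were not compared by a test.

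Of the stromelysins, proteases with broad substrate range, Mmp3 had the widest spread. Mmp3 stood at 18.6, 13.6 and 14.1 CPM at 5 mM and at 0.835, 3.45 and 10.5 CPM at 25 mM, so that the range of the 25 mM replicates exceeded the gap between the groups. Its log2 fold change was -1.65 (SE 0.72, FDR 0.175). Mmp10 had few counts, with 0.433, 0.430 and 0.447 CPM at 5 mM and 0.0232 (1 count), 0.219 and 0.339 CPM at 25 mM (log2 fold change -1.16, SE 0.65, FDR 0.267). The groups did not overlap in either gene. Mmp11, which furin activates inside the cell, had a log2 fold change of -0.91 at a mean of 4.49 CPM.

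Mmp3, Mmp8, Mmp10, Mmp12, Mmp13 and Mmp27 lie in a cluster of 10 members on chromosome 9, with Mmp1a, Mmp1b, Mmp7 and Mmp20. The log2 fold changes of the 6 tested genes lay between -1.65 (Mmp3) and -0.66 (Mmp27), with a median of -1.09. Mmp12, the macrophage elastase, had the most counts of the 6, at 97.3, 81.0 and 97.5 CPM at 5 mM and 23.5, 78.6 and 69.5 CPM at 25 mM (log2 fold change -0.69, SE 0.39, FDR 0.271). Its groups did not overlap, and 25 mM replicate 1 lay far below the other 25 mM replicates. The edgeR, DESeq2 and limma-voom fits called 0 of the 6 at an FDR under 0.05, and by edgeR 1 (Mmp13) had an unadjusted p under 0.05.

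Promoter windows of 300 bases, from 250 before to 50 after the transcription start, were at hand for all 10 cluster genes and for 36 of the 51 members (RefSeq, build GRCm38.p6). The 15 members without a window, among them Mmp9, Mmp19, Adamts4, Adamts5 and Adamts7, could not be searched. TGANTCA, the letters bound by AP-1 factors, was found in the windows of 8 of the 10 cluster genes. It was found in no other member with a window, against 8.97% of all 27025 genes with a window. TATAAA, the letters of the TATA box, was found in 9 of the 10 and in 15.7% of all genes. Counted from the annotated start, it began at -29 in Mmp10, -28 in Mmp1a and -26 (also -123) in Mmp7. In Mmp20, Mmp1b, Mmp13, Mmp3, Mmp8 and Mmp12 it began at -58, -49, -16, -7, -3 and 4. GGGCGG, a GC box, was found in 0 of the 10, in 22 of the 36 members and in 38.2% of all genes. TAATCC (CRX) and CACGTG (E-box) were each found in 2 members (5.56%), against 8.14% and 8.09% of all genes. Both strands were searched, TGANTCA and CACGTG read the same on either strand, and a match describes letters and not binding. The windows of the 4 tested cluster genes with TGANTCA are shown to set their layout side by side, from 90 bases before to 30 bases after the start on the plus strand, with TGANTCA and TATAAA in capitals. They are chr9:7445732-7445851 for Mmp3, chr9:7502252-7502371 for Mmp10, chr9:7347284-7347403 for Mmp12 and chr9:7272424-7272543 for Mmp13.
Mmp3: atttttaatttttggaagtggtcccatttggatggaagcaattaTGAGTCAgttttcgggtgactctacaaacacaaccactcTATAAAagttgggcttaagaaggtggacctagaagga
Mmp10: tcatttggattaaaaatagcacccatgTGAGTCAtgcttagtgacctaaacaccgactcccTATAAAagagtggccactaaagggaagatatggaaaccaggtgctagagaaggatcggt
Mmp12: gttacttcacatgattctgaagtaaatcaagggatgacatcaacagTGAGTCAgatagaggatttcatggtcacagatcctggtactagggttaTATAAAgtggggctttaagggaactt
Mmp13: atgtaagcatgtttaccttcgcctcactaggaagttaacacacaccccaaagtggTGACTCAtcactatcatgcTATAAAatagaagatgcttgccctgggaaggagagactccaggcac

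In each of these 4 windows TGANTCA lay before TATAAA. In single libraries these cluster genes differed widely between technical replicates. Mmp12 was at 29.7 CPM in the first and 110 CPM in the second library of 25 mM replicate 2, and Mmp8 at 0.074 and 4.46 CPM. At 5 mM, Mmp3 was at 27.8 CPM in the first and 5.51 CPM in the second library of replicate 1. In batch 1 alone the median log2 fold change of the 4 cluster genes that could be fitted in each batch was -2.07, and in batch 2 it was -0.13, with Mmp12 at 0.10 and Mmp8 at 0.17. Mmp3 and Mmp10 are paralogs, so the division of reads between them is uncertain. The exons of Mmp12 share 157 bases with Mmp1b on the opposite strand, and Mmp1b had 0 counts.

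**Figure D2:**
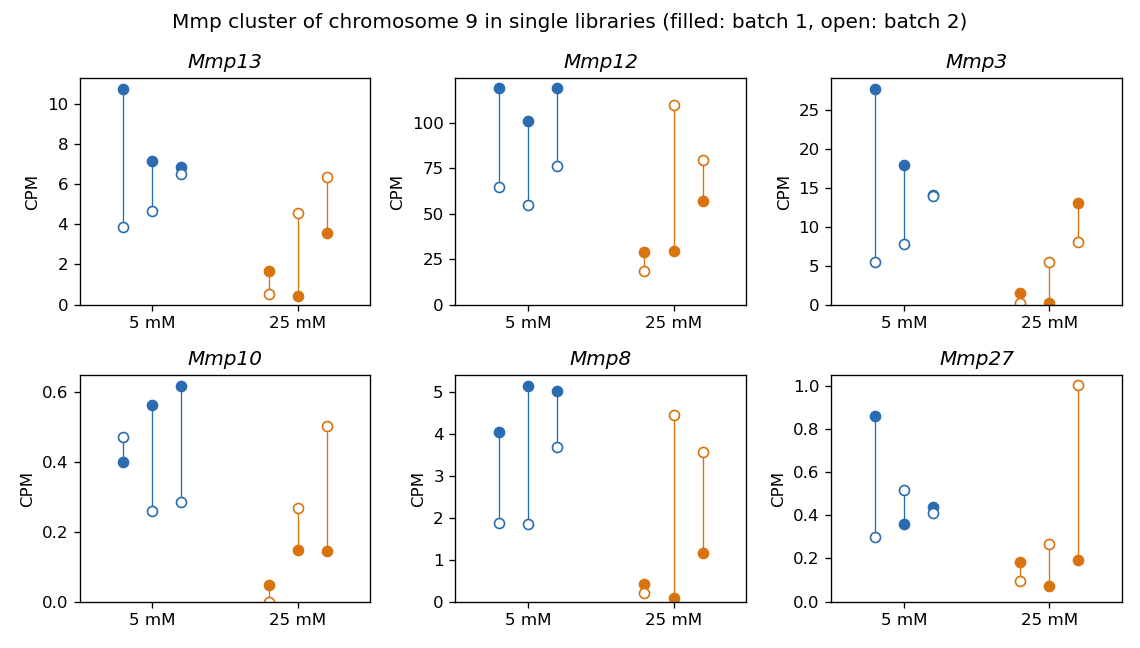
CPM (vertical axis) of the 6 tested genes of the chromosome 9 Mmp cluster in each of the 12 libraries, with filled points for batch 1, open points for batch 2 and a line joining the technical replicates of a biological replicate. For Mmp12 the libraries of 25 mM replicate 2 stand at 29.7 and 110 CPM.

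Of the remaining secreted enzymes, Mmp19 fell. Mmp19 (chromosome 10 of GRCm38, 128790910 to 128800824), a protease of basement membrane proteins, was at 17.3, 19.5 and 16.5 CPM at 5 mM and at 4.03, 5.94 and 7.28 CPM at 25 mM. The log2 fold change was -1.63 (SE 0.27, FDR 0.0362), and the gap between the groups was wider than the range of either. Single libraries overlapped, with the second of 5 mM replicate 1 at 9.31 CPM and the second of 25 mM replicate 3 at 9.54 CPM. In batch 1 the value was -2.57 (FDR 0.0081) and in batch 2 -0.77 (FDR 0.438). Both coding transcripts were lower in each 25 mM replicate, Mmp19-201 with 788, 504 and 416 counts at 5 mM and 122, 157 and 258 at 25 mM, and Mmp19-203 with 207, 337 and 277 counts and 55, 70 and 87. Its exons share 789 bases with Tmem198b on the opposite strand, which itself had a log2 fold change of -0.81 (FDR 0.0745). Whether reads were counted by strand was not given in the sources used here, so reads of such pairs cannot be told apart.

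Mmp28 (epilysin) was at 3.52, 10.8 and 7.79 CPM at 5 mM and at 0.951, 1.56 and 2.06 CPM at 25 mM. Its groups did not overlap, and its log2 fold change of -2.27 (SE 0.47, FDR 0.0522) was the lowest of the 44 members. Its exons share 466 bases with 1700020L24Rik on the opposite strand.

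**Figure D3:**
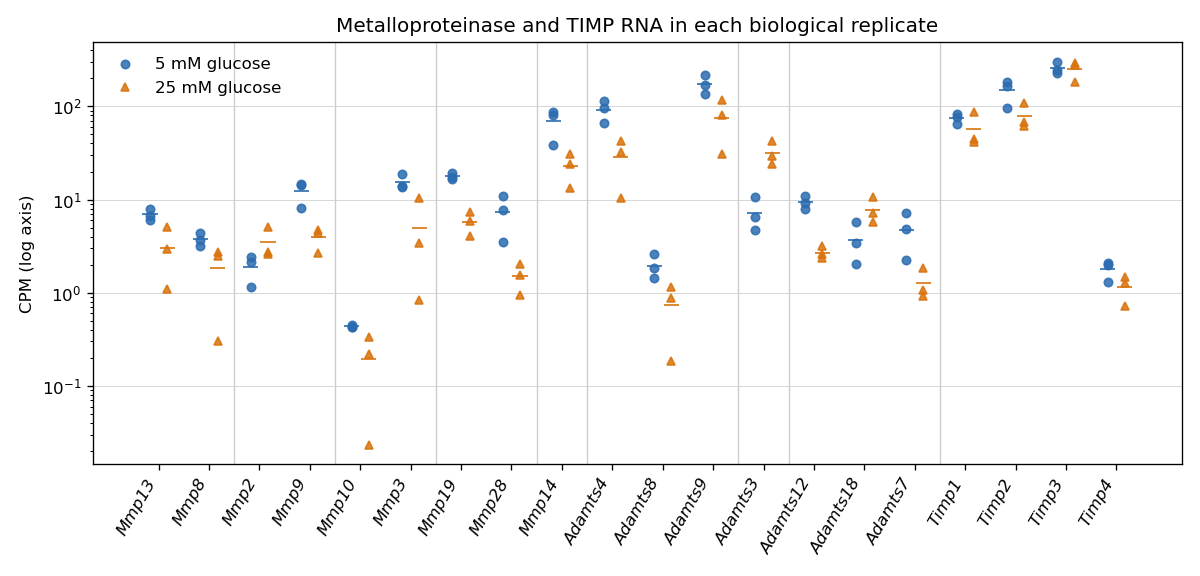
CPM on a log axis (vertical) in each biological replicate, blue circles for 5 mM and orange triangles for 25 mM glucose with lines at the group means, for the 20 members described by replicate, in order of role. The circles of Mmp19 (16.5 to 19.5 CPM) and Adamts12 lie above their triangles, and those of Adamts3 (4.68 to 10.7 CPM) below.

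The membrane-type enzymes were led by Mmp14, the surface protease that activates pro-Mmp2 together with Timp2. Mmp14 was at 38.5, 87.1 and 81.6 CPM at 5 mM and at 13.4, 24.3 and 31.2 CPM at 25 mM. Its log2 fold change was -1.59 (SE 0.39, FDR 0.0659), with 5 mM replicate 1 close to the 25 mM samples but above them. Leaving out 5 mM replicate 1 moved it to -1.88 (FDR 0.0122). Mmp15 (mean 5.58 CPM) had a log2 fold change of -1.21 and Mmp25 (1.24 CPM) of -1.17, both with overlapping groups. Mmp16 (9.51 CPM) was at 0.47, Mmp17 (3.19 CPM) at -0.14 and Mmp24 (6.33 CPM), known as a membrane-type enzyme of neurons, at -0.17. With correction for GC content and exon length the values of Mmp17 and Mmp24 turned to 0.26 and 0.28. By edgeR 0 of these 6 genes had an FDR under 0.05 and 3 an unadjusted p under 0.05, and DESeq2 called Mmp14 lower.

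The proteoglycan-cleaving ADAMTS genes had a summed level of 705 to 1019 CPM at 5 mM and 299 to 681 CPM at 25 mM, out of 1481 to 1888 and 792 to 1430 CPM for all members. Adamts1, an antiangiogenic protease that cuts versican and aggrecan, was at 400, 518 and 618 CPM at 5 mM and 183, 298 and 438 CPM at 25 mM (log2 fold change -0.74, FDR 0.170). In Adamts1 the highest 25 mM replicate lay above the lowest 5 mM replicate. Adamts9, which cuts versican, was at 136, 169 and 216 CPM at 5 mM and at 31.1, 80.1 and 116 CPM at 25 mM (log2 fold change -1.20, SE 0.42, FDR 0.117). Adamts4, an aggrecanase, was at 66.1, 96.6 and 114 CPM at 5 mM and at 10.5, 32.5 and 42.0 CPM at 25 mM (log2 fold change -1.70, SE 0.46, FDR 0.0737). Adamts4 and Adamts9 did not overlap between groups, and replicate 1 was the lowest sample of each group in both.

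The other main aggrecanase, Adamts5, was at 101, 66.3 and 67.5 CPM at 5 mM and 72.1, 76.1 and 82.4 CPM at 25 mM. Its log2 fold change was -0.03 (SE 0.20), and 0.04 when library totals replaced the TMM scaling. Adamts8 was at 1.43, 2.58 and 1.85 CPM at 5 mM and 0.185, 0.876 and 1.15 CPM at 25 mM (log2 fold change -1.40, SE 0.57, FDR 0.153), with groups that did not overlap. Opposite-strand genes share 489 bases of exon with Adamts8 (Gm29724) and 1381 with Adamts9 (A730049H05Rik). A730049H05Rik had a log2 fold change of -0.68 (FDR 0.418).

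Adamts3 was the 1 member called higher by the main edgeR test. Adamts3 (chromosome 5, 89677087 to 89883334, minus strand) is a procollagen N-proteinase that also activates the lymphatic growth factor VEGF-C. It was at 10.7, 6.43 and 4.68 CPM at 5 mM and at 42.5, 29.7 and 23.8 CPM at 25 mM, a 4.40-fold rise (log2 fold change 2.14, SE 0.36, FDR 0.0359). Replicate 1 was the highest sample of each group, and every 25 mM sample was above every 5 mM sample. The 3 coding transcripts with reads were higher in each 25 mM replicate. Adamts3-201 had 334, 220 and 61 counts at 5 mM and 1146, 662 and 515 at 25 mM, or 56.3% and 57.9% of the gene's transcript counts. Adamts3-202 had 149, 45 and 118 counts at 5 mM and 485, 284 and 429 at 25 mM, and Adamts3-204 had 87, 39 and 31 counts and 214, 113 and 111. The related N-proteinases had values below 0, with Adamts2 (1.38 CPM) at -0.75 and Adamts14 (0.628 CPM) at -0.95.

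In batch 1 the log2 fold change of Adamts3 was 3.28 (FDR 0.0076) and in batch 2 1.38 (FDR 0.415). In the single libraries Adamts3 ranged from 2.77 to 18.1 CPM at 5 mM and from 13.7 to 57.5 CPM at 25 mM. The highest 5 mM library was the second library of replicate 1, and the lowest 25 mM library was the second of replicate 2, so the groups overlapped between single libraries. The promoter window of Adamts3 held neither TGANTCA nor TATAAA. It is shown as that of the 1 member called higher (chr5:89883305-89883424, minus strand), with a GC box of the opposite strand in capitals.
Adamts3: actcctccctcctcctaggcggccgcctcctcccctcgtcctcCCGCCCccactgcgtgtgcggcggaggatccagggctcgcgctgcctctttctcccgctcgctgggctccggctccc

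Adamts12 fell. Adamts12 (chromosome 15, 11064790 to 11349231), which like Adamts7 cuts cartilage oligomeric matrix protein, was at 7.98, 9.12 and 10.8 CPM at 5 mM and at 2.34, 2.60 and 3.17 CPM at 25 mM. Its log2 fold change was -1.78 (SE 0.27), with the lowest FDR of the members (0.0302), and the gap between the groups was wider than the range of either. Single libraries overlapped, with the second of 5 mM replicate 1 at 3.075 CPM and the second of 25 mM replicate 3 at 3.599 CPM. Of its transcript counts, 97.9% at 5 mM and 98.0% at 25 mM belonged to Adamts12-201. In batch 1 the log2 fold change was -2.37 (FDR 0.0081) and in batch 2 -0.71 (FDR 0.489). Adamts7 was at 2.26, 7.22 and 4.83 CPM at 5 mM and 0.927, 1.07 and 1.83 CPM at 25 mM (log2 fold change -1.90, SE 0.47, FDR 0.0681), without overlap of the groups. The exons of Adamts7 share 122 bases with Tbc1d2b on the opposite strand, which had a log2 fold change of -0.66.

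Adamts18, mutated in inherited eye disease, was at 5.69, 2.04 and 3.42 CPM at 5 mM and 10.6, 7.09 and 5.77 CPM at 25 mM (log2 fold change 1.07, SE 0.41, FDR 0.140). Its highest 5 mM and lowest 25 mM values nearly met. Adamts10 (mean 15.5 CPM) and Adamts17 (2.02 CPM), whose human counterparts are mutated in disorders of fibrillin microfibrils, had log2 fold changes of -0.62 and -0.44. Adamts6 (11.2 CPM) was at -0.14 and Adamts19 (1.51 CPM) at 0.55. The 6 tested members under 1 CPM (Adamts14, Adamts15, Adamts16, Adamts20, Mmp10 and Mmp27) ranged from -1.16 to 0.76.

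The 5 ADAMTS-like genes, matrix proteins without protease activity, had log2 fold changes from -0.62 to -0.04. By edgeR 0 of them had an unadjusted p under 0.05. The groups of Adamtsl3 did not overlap, though its lowest 5 mM value (1.85 CPM) and highest 25 mM value (1.83 CPM) nearly met. Adamtsl1 (12.7 CPM) was at -0.47, Adamtsl2 (2.15 CPM) at -0.24, Adamtsl3 (1.87 CPM) at -0.62, Adamtsl4 (7.43 CPM) at -0.04 and Adamtsl5 (5.74 CPM) at -0.40 on the log2 scale. With correction for GC content and exon length Adamtsl2, Adamtsl4 and Adamtsl5 turned to 0.05, 0.48 and 0.15.

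Among the inhibitors, Timp2 had the lowest fold change. Timp2, which also helps Mmp14 to activate pro-Mmp2, was at 96.8, 183 and 165 CPM at 5 mM and 67.3, 62.3 and 110 CPM at 25 mM (log2 fold change -0.90, SE 0.30, FDR 0.106). Timp1 was at 64.5, 83.5 and 77.2 CPM at 5 mM and 44.7, 41.4 and 87.2 CPM at 25 mM (log2 fold change -0.38, SE 0.29, FDR 0.410). In both the groups overlapped through 25 mM replicate 3, which in Timp1 was the highest of the 6 samples. Timp3 was at 303, 231 and 247 CPM at 5 mM and 183, 277 and 293 CPM at 25 mM, a log2 fold change of -0.05 (SE 0.22, FDR 0.897). The value of Timp3 was -0.80 in batch 1 and 0.61 in batch 2, and 0.01 with library totals. Timp4 was low, at 1.32, 2.08 and 1.98 CPM at 5 mM and 0.719, 1.26 and 1.47 CPM at 25 mM (log2 fold change -0.64, SE 0.36, FDR 0.268). By edgeR 0 of the 4 had an FDR under 0.05 and 1 (Timp2) an unadjusted p under 0.05, and DESeq2 called 0. Timp1, Timp3 and Timp4 lie inside synapsin genes on the opposite strand (Syn1, Syn3 and Syn2), with no exon shared by Timp1 and Syn1, and exons shared by Timp3 and Syn3 (1733 bases) and by Timp4 and Syn2 (90 bases). Syn1 fell (log2 fold change -1.01, FDR 0.0426), and Syn3 and Syn2 were at -0.15 and -0.12.

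Levels were compared between genes as CPM per kilobase of merged exons. At 5 mM the highest means were 96.6 for Adamts1 (75.3 to 117 over replicates), 84.5 for Timp1 (72.6 to 94.0), 38.0 for Timp2 (24.8 to 46.9), 31.9 for Timp3 (28.4 to 37.2) and 19.2 for Adamts4 (13.7 to 23.7). Adamts1 and Timp1 overlapped, as did Timp2 and Timp3, whereas Timp1 and Timp2, and Timp3 and Adamts4, did not. At 25 mM the order was Timp1 (65.1, from 46.6 to 98.2), Adamts1 (57.8, from 34.6 to 82.6), Timp3 (30.8, from 22.5 to 36.0) and Timp2 (20.5, from 16.0 to 28.1), and each neighbouring pair in this order overlapped. Mmp12, at 12.7 and 7.90, had the highest mean level per kilobase of the Mmp genes in both groups, though its replicates overlapped those of Mmp14 at 5 mM and those of Mmp14 and Mmp3 at 25 mM. Adamts3 moved from place 23 among the 51 members at 5 mM (1.34) to place 8 at 25 mM (5.89). These levels are a description without a test.

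The size of the glucose difference varied with the batch. In batch 1 alone edgeR called 3 members higher (Adamts3, Adamts18 and Mmp2, 7.14% of 42 fitted, against 7.16% of all genes) and 13 lower (31.0%, against 10.1% of all genes). In batch 2 alone it called 0 members and 0% of all genes in either direction, with 2 members higher and 1 lower of 42 at an unadjusted p under 0.05, against 5.07% and 6.64% of all genes. The median log2 fold change of the members was -1.02 in batch 1 and -0.30 in batch 2. Of the 42 members, 24 were below 0 in both batches, 4 (Adamts3, Adamts18, Adamts19 and Mmp16) were above 0 in both, and 14 had opposite signs. The test of the difference between batches gave an FDR of at least 0.187 for every member, and an unadjusted p under 0.05 for 15 of 42 (35.7%), against 16.3% of all genes. Both batches used the same biological replicates, so the batches are no independent samples.

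**Figure D4:**
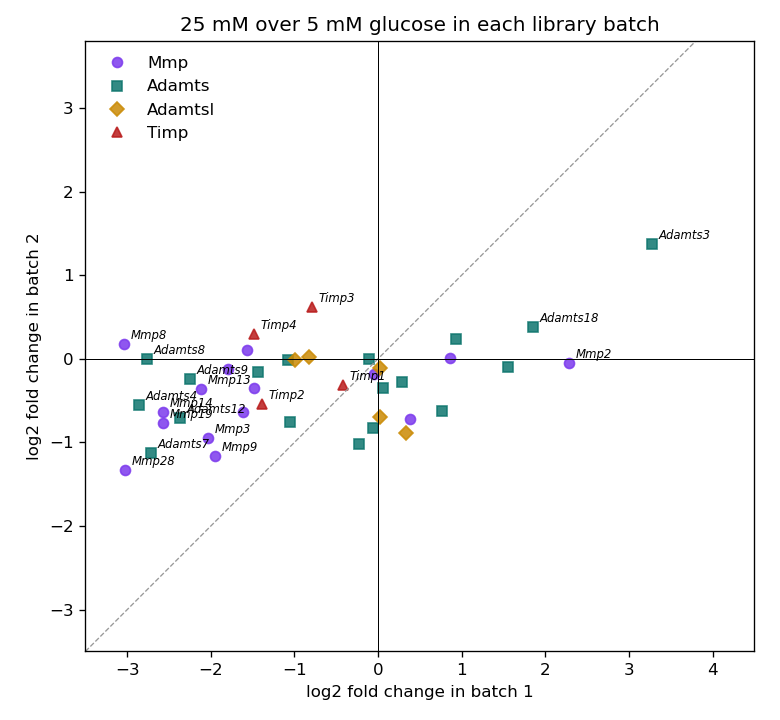
Log2 fold change of 25 mM over 5 mM glucose in batch 1 (horizontal axis) and in batch 2 (vertical axis) for the 42 members fitted in both, with symbols for the gene families and a dashed line where both would be equal. In 34 of the 42 the value of batch 2 is the smaller in size, as for Adamts3 at 3.28 and 1.38.

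Cell type markers differed by list, with endothelial, pericyte, fibroblast and microglia markers mostly lower at 25 mM and rod markers higher. The summed level of 12 vascular endothelial markers was 1344 to 2479 CPM at 5 mM and 477 to 1099 CPM at 25 mM, with a median log2 fold change of -1.66 and all 12 below 0. For 10 pericyte and smooth muscle markers the sums were 422 to 552 and 251 to 427 CPM (median -1.49, 9 of 10 below 0), so the sums overlapped. Rgs5 had the highest level of this list, at 255 to 283 and 209 to 351 CPM, with a log2 fold change of 0.09. For 8 fibroblast markers they were 200 to 223 and 37.8 to 145 CPM (median -1.21 over the 6 tested, all 6 below 0), and for 10 microglia markers 391 to 516 and 149 to 314 CPM (median -1.03, all 10 below 0). Of the 38 genes of these 4 lists that were tested, Col3a1 fell at an FDR under 0.05 by edgeR, against 0.513% of all genes. At an unadjusted p under 0.05 by edgeR, 30 of the 38 were lower, against 15.5% of all genes. The median log2 fold changes in batch 1 and batch 2 were -2.8 and -0.6 for the endothelial list and -2.3 and -0.9 for the pericyte list. They were -2.2 and -0.2 for the fibroblast list and -1.5 and -0.5 for the microglia list. In these lists, as in 22 of the 44 members, 25 mM replicate 1 was the lowest sample. The 10 rod photoreceptor markers went the other way, with sums of 2925 to 5548 CPM at 5 mM and 6383 to 8854 CPM at 25 mM (median 1.09). By edgeR 6 of these 10 were called higher at an FDR under 0.05, against 1.47% of all genes. The 10 Müller glia markers were at 3847 to 4831 and 2564 to 3747 CPM (median -0.14, 6 of 10 below 0). Vim, which other cell types also express, carried this difference, at 1264 to 2209 and 472 to 926 CPM, and without it the sums overlapped, at 2583 to 2626 and 2091 to 2821 CPM. Of 10 retinal pigment epithelium markers 4 (Rpe65, Pmel, Mlana and Slc45a2) had too few counts for a test. Rlbp1, which Müller glia also express, made up nearly all of their sums of 243 to 354 and 230 to 276 CPM, and the other 9 summed to 5.82 to 7.38 and 3.86 to 5.97 CPM. The part of these cell types in the members' differences was not tested.

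**Figure D5:**
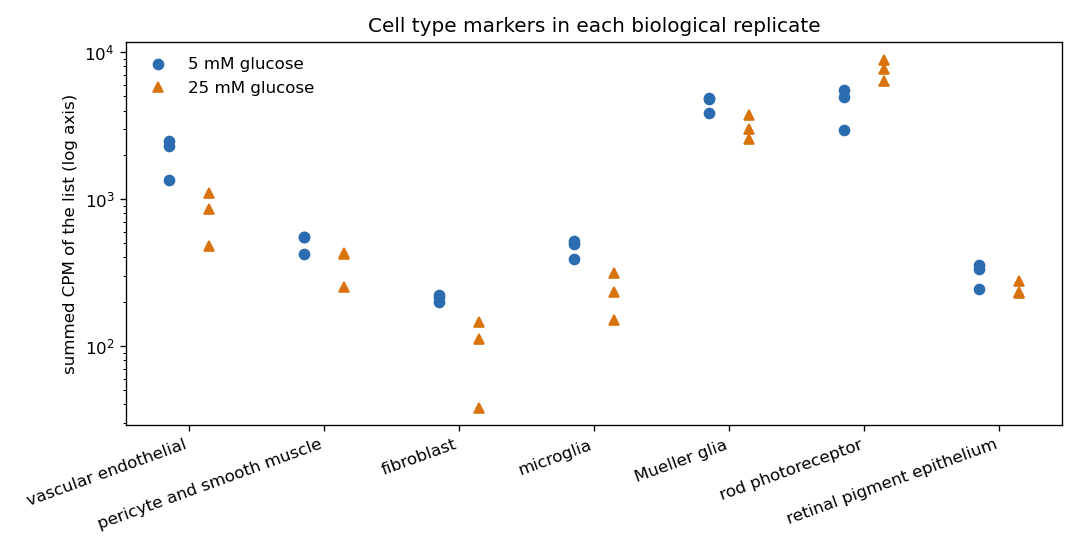
Summed CPM on a log axis (vertical) of 7 cell type marker lists in each biological replicate, blue circles for 5 mM and orange triangles for 25 mM glucose. The endothelial sums are 1344 to 2479 CPM at 5 mM and 477 to 1099 CPM at 25 mM, and the rod sums lie the other way round.

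Genes that act with the members were followed as 4 lists. At an FDR under 0.05 edgeR called 1.47% of all genes tested higher and 0.513% lower, for comparison with the calls below. Of the activators and cofactors, proteases and receptors that release or present active enzyme, 11 of 12 were tested and 0 were called by edgeR. At an unadjusted p under 0.05 by edgeR, 4 were lower, against 15.5% of all genes. The log2 fold changes of this list ran from -1.60 for the urokinase receptor gene Plaur to 0.07 for the proprotein convertase gene Pcsk5. Of 13 other inhibitors, serpin family genes and clearance receptors 1 fell, the testican gene Spock1. Spock1 went from 18.9, 20.5 and 17.5 CPM at 5 mM to 7.88, 9.55 and 7.37 CPM at 25 mM (log2 fold change -1.20, SE 0.22, FDR 0.0423). The extremes of that list were Serpinf1, which encodes the antiangiogenic factor PEDF, at -1.61 and neuroserpin (Serpini1) at 0.40.

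Of 21 tested substrates 18 were below 0 (median -1.05), against 50.7% of all genes. By edgeR 1 was called higher and 2 lower, against 1.47% and 0.513% of all genes. The brain proteoglycan brevican (Bcan) rose from 0.325, 0.498 and 0.298 CPM at 5 mM to 1.58, 1.20 and 1.15 CPM at 25 mM (log2 fold change 1.81, FDR 0.0460). Biglycan (Bgn), a small proteoglycan of connective tissue, fell from 37.3, 89.6 and 60.7 CPM to 2.85, 7.77 and 13.8 CPM (log2 fold change -2.94, FDR 0.0456). The fibrillar collagen gene Col3a1, also in the fibroblast list, fell from 14.5, 25.2 and 19.1 CPM to 2.16, 4.46 and 4.82 CPM (log2 fold change -2.36, FDR 0.0326). Of 10 ADAM genes, membrane proteases that shed cell surface proteins, Adam19 fell from 23.7, 41.2 and 46.0 CPM to 4.85, 7.91 and 10.0 CPM (log2 fold change -2.28, FDR 0.0324). The highest value of the ADAM list was 0.64 for Adam23, which lacks protease activity, and the median was -0.56 with 8 of 10 below 0.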

How the data were processed

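RNA-seq libraries were made from total RNA with a stranded kit for low inputs (4 ng RNA, 13 PCR cycles) and sequenced as pairs of 101 bases. The authors deposited estimated counts (expected counts) per gene and per transcript, one column per library, without normalization between libraries. Build GRCm38 is named in the submitters' processing notes, and the counting tool, annotation and use of strand are not given in the sources used here. GENCODE M21 gave symbols to 90.8% of gene identifiers and exon lengths.

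The 2 technical replicates of each biological replicate were summed and rounded to whole numbers, filtered with filterByExpr and scaled by TMM in edgeR 4.0.16 (R 4.3.3). The 3 replicates of 25 mM were tested against 3 of 5 mM glucose by edgeR's quasi-likelihood test in its version 3 form, with no blocking factor, and p-values of the 21061 genes were adjusted after Benjamini-Hochberg. The biological coefficient of variation was 0.297. CPM values use TMM factors. Depth bears on counting error alone, because reads amplified without molecular identifiers are not independent molecules. Promoter windows came from RefSeq (GRCm38.p6), and 15 members had none there. Alternatives used DESeq2 1.42.0, limma-voom (limma 3.58.1), other scalings and filters, each batch, 12 libraries with a batch term, a replicate block, a loess correction for GC content and exon length, and transcript counts summed per gene. Leaving out single libraries and the test of a batch difference were added after seeing the data. Tables and plots used Python 3.11.15, pandas 2.3.3 and matplotlib 3.10.9.

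The members and lists were chosen with earlier results of these data known. Every member with a mean of at least 1 CPM was to be named with its level and fold change. Replicate values were to be given for Timp1 to Timp4, Mmp2, Mmp9, Mmp14, members with an FDR under 0.05, and members with an absolute log2 fold change over 1 and no overlap of the groups. Genes of the other lists were to be named when called or at either end of their list.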

Additional observations from a re-analysis of the deposited data

How the results depend on the processing

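Across 23 alternatives, 753 of 893 gene values kept their direction and their side of the 0.05 threshold, 76 passed it newly, 18 no longer passed and 46 changed sign. The direction held in 26 of the 39 named genes, Adamts3, Adamts12 and Mmp19 among them. The replicate medians of the members had an SD of 0.277 on the log2 scale, and counting error weighs most on the 6 tested members under 1 CPM. Members called lower, each with the share of all genes in that fit, numbered 8 by DESeq2 (9.54%), 4 by edgeR's version 4 method (0.945%), 7 with no filter on low counts (3.47%), 7 with 12 libraries and a batch term (7.86%), 13 in batch 1 (10.1%), 0 in batch 2 (0%) and 6 with GC and length correction (6.18%), against 2 (0.513%) in the main test. The fit of 12 libraries counted technical replicates as separate samples, so its p-values do not measure the spread between biological replicates. Members called higher numbered 3 in batch 1 (7.16%) and 0 in batch 2 (0%), against 1 (1.47%). By the stricter rule (an FDR under 0.01 with a more than 2-fold change) there were 8 by DESeq2 (6.59%), 4 with no filter (0.783%) and 3 in batch 1 (1.93%), against 0 (0%). Members whose groups did not overlap numbered 0 over 12 separate libraries (4.72%) and 4 in batch 2 (16.1%), against 19 (31.8%). The members' median was -1.02 in batch 1, -0.30 in batch 2 and -0.40 with GC and length correction, against -0.65 in the main test. Leaving out each replicate in turn, or 1 of the 3 libraries, gave 0 to 2 called higher (0% to 11.7% of all genes), 0 to 12 called lower (0% to 14.9%), 0 to 1 by the stricter rule (0% to 0.492%) and 16 to 32 without overlap (26.1% to 62.8%). Leaving out the first library of 25 mM replicate 2 gave 0 called higher and 0 lower, and without the second library of 5 mM replicate 1 or of 25 mM replicate 3 there were 7 and 11 lower, with 1 by the stricter rule in the former. The cause was not tested.

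Whether the replicate numbers pair the samples was not given in the sources used here. Same-numbered samples correlated at -0.01, -0.45 and 0.28 in their deviations from the group means. With 3 samples per group these correlations cannot decide it. With a replicate block edgeR called 1 member higher and 7 lower, against 1.92% and 2.78% of all genes. With the block and the GC and length correction it called 3 higher and 12 lower, against 5.76% and 7.75%, and 3 of these by the stricter rule, against 1.47%. Not every sample correlated best with its own number.

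Signs turned as follows, in log2 fold change. With library totals, Adamts5 was at 0.0439, Adamtsl4 at 0.0103 and Timp3 at 0.0089. With a filter of 1 CPM, Adamts5 was at 0.0231 and Adamtsl4 at 0.00627. In batch 1, Adamts6 was at 0.0594, Adamtsl2 at 0.34, Adamtsl4 at 0.0214, Adamtsl5 at 0.0262 and Mmp24 at 0.38. In batch 2, Adamtsl3 was at 0.0252, Mmp12 at 0.10, Mmp2 at -0.056, Mmp8 at 0.17, Timp3 at 0.61 and Timp4 at 0.29. With GC and length correction, Adamtsl2 was at 0.0511, Adamtsl4 at 0.48, Adamtsl5 at 0.15, Mmp17 at 0.26 and Mmp24 at 0.28, and with the replicate block as well Adamtsl4 was at 0.49, Adamtsl5 at 0.19, Mmp17 at 0.21 and Mmp24 at 0.28. With the block alone Adamts5 was at 0.000992. With transcript counts, Adamts5 was at 0.0056, Adamtsl2 at 0.15, Adamtsl3 at 0.0519 and Adamtsl5 at 0.0154. Without the second library of 5 mM replicate 1, Adamts5 was at 0.03, and without the first library of 25 mM replicate 2, Adamts5 was at 0.07, Adamtsl4 at 0.02 and Timp3 at 0.14. Leaving out single replicates or libraries gave -0.14 to 0.20 for Adamts5, -0.23 to 0.0145 for Adamts6, -0.99 to 0.19 for Adamtsl2, -0.27 to 0.15 for Adamtsl4, -0.39 to 0.0458 for Mmp17 and -0.20 to 0.14 for Timp3.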
